A study of Mus musculus with 6 samples.

Results

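The loci of 3 genes of the type 1 effector program, Tbx21, Eomes and Ifng, were examined in peak lists from chromatin immunoprecipitation followed by sequencing (ChIP-seq) of mouse γδ thymocytes. The members are the peaks that touch a fixed mm9 window around each gene by at least 1 bp. The windows run from 96940000 to 97000000 on chromosome 11 for Tbx21, from 118370000 to 118420000 on chromosome 9 for Eomes and from 117850000 to 117910000 on chromosome 10 for Ifng. They hold 26 of the 74959 peaks of the 5 lists, with 11 in the Tbx21 window, 11 in the Eomes window and 4 in the Ifng window.

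All libraries came from C57BL/6 mice of the genotype TCRbeta KO.Sox13 ECFP KI/+, which lack the TCRβ gene and carry a cyan fluorescent protein (CFP) reporter in 1 Sox13 allele. The γδ TCR-positive, CD24-positive thymocytes were sorted by CFP into a bright population, called Sox13hi, and a dim or negative one, called Sox13lo. SOX13 was mapped in Sox13hi cells, with 1000000 cells per ChIP. The histone H3 modifications H3K4me3 (trimethylation of lysine 4) and H3K27me3 (trimethylation of lysine 27) were each mapped in both populations, with 250000 cells per ChIP. Each group had 1 library, so differences between the populations cannot be set against replicate error and no test was run. The labels give neither the number of animals nor their age, and the sorted cells were not checked at marker gene loci here.

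Tbx21 encodes T-bet and Eomes encodes Eomesodermin, T-box transcription factors that direct type 1 effector differentiation in lymphocytes. Ifng encodes interferon-γ, the cytokine that defines this program and a direct target of both factors. SOX13 is an HMG-box factor of early γδ T cells that is known for its part in the development of γδ cells that make interleukin-17, and the type 1 loci belong to another effector fate. H3K4me3 marks active and poised promoters, H3K27me3 is laid down by Polycomb repressive complex 2 at silenced genes, and promoters that carry both are often called bivalent.

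The promoters of the 3 genes are shown because H3K4me3 and H3K27me3 in mammals tend to lie on CpG-rich promoters. The 3 windows differed in these marks, and whether CpG content has a part in this was not tested. All 3 genes were found in the RefSeq promoter table. The 250 bases before each gene's start are printed 5′ to 3′ on the gene's strand, in the build GRCm38.p6, with each CpG in capitals. Tbx21 is at chr11:97115332-97115581 on the minus strand, Eomes at chr9:118477939-118478188 on the plus strand and Ifng at chr10:118440796-118441045 on the plus strand. These positions cannot be compared with the mm9 positions of the peaks.
Tbx21: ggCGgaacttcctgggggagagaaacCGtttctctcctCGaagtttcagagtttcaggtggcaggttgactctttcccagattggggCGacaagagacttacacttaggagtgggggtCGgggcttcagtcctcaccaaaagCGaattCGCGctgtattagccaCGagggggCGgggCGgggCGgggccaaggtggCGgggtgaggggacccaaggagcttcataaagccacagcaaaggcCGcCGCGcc
Eomes: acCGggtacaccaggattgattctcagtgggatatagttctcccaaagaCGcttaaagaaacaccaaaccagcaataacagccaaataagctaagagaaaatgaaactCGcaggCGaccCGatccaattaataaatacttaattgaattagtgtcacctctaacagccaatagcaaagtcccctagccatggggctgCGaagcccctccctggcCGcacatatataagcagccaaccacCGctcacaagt
Ifng: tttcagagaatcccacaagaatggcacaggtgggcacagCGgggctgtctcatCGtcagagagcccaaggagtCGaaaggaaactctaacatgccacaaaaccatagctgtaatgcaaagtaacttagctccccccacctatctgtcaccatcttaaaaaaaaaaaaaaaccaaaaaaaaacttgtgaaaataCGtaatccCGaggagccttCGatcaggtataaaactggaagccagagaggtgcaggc

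In these 250 bases the Tbx21 promoter had 16 CpG, the Eomes promoter 8 and the Ifng promoter 6. CpG farther upstream or after the start were not counted. Over all 32851 RefSeq promoter windows the median was 6, and 74.6%, 57.0% and 49.6% of windows had fewer CpG than Tbx21, Eomes and Ifng respectively. The ratio of observed to expected CpG was 0.721 for Tbx21, 0.621 for Eomes and 0.472 for Ifng, against a median of 0.373. This ratio was lower in 74.8% of windows for Tbx21, 67.5% for Eomes and 57.7% for Ifng. GC content was 60.8% for Tbx21, 46.4% for Eomes and 45.2% for Ifng, against a median of 52.4%, and was lower in 73.9%, 28.4% and 24.5% of windows. By GC content Tbx21 thus stood above the median and the other two below it, while by the CpG ratio all 3 stood above it.

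**Figure D1:**
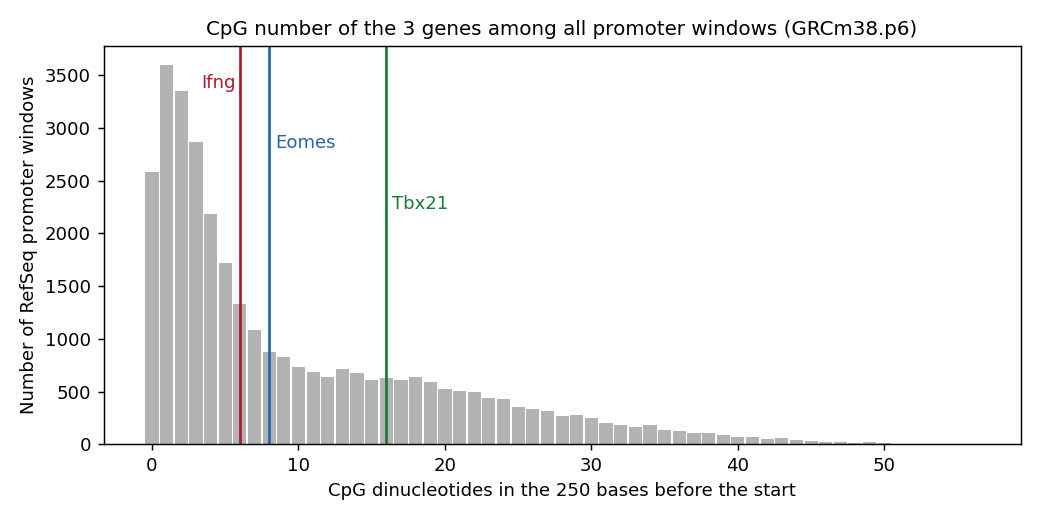
Number of CpG dinucleotides in the 250 bases before the start (x axis) against the number of RefSeq promoter windows with that number (grey bars, y axis), for 32851 windows in GRCm38.p6. Coloured lines mark Ifng at 6, Eomes at 8 and Tbx21 at 16 CpG.

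Tbx21 and Eomes each held 1 site with both marks in both populations, and Ifng held none. In the Tbx21 and Eomes windows a peak of each of the 4 histone lists met at 1 place, and SOX13 was not among them. Each mark was mapped in its own ChIP of many cells. Overlapping peaks therefore do not show that both marks lay in the same cell or on the same copy of the gene. In the Ifng window no H3K4me3 peak was listed in either population, H3K27me3 was listed once in Sox13hi, and SOX13 was listed 3 times. Of all 60 kb bins of the genome, 5.12% were touched by both marks in both populations, as the Tbx21 window was. Of all 50 kb bins, 4.27% were, as the Eomes window was. These shares ask only that each list touch the bin, not that the peaks meet at 1 place. SOX13 without H3K4me3 in either population, as in the Ifng window, was seen in 11.1% of 60 kb bins. SOX13 and Sox13hi H3K27me3 with none of the other 3 lists, the full combination at Ifng, was seen in 1.64%. The mark combinations and the minimum counts above 1 asked of bins, here and below, were taken from what the windows held. A small share therefore describes a window and does not show it to be unusual. All bin shares, here and below, come from bins laid without regard to genes, while the windows were placed on genes. Shares among bins around genes were not computed.

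**Figure D2:**
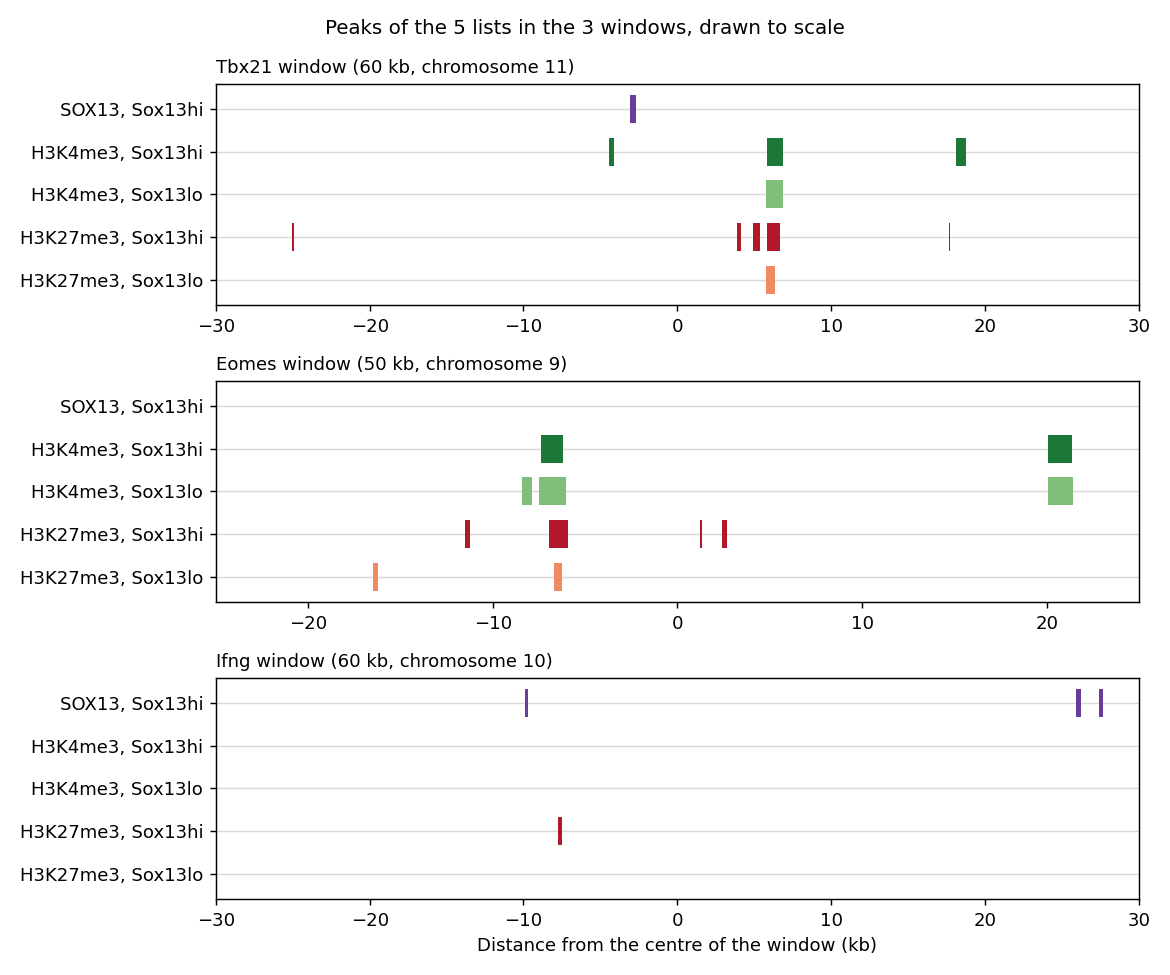
Peaks of the 5 lists (rows) in the Tbx21, Eomes and Ifng windows (panels), as bars drawn to scale against the distance from the window's centre in kb. In the Tbx21 and Eomes windows the 4 histone lists stack at 1 site each, and the Ifng window holds 3 SOX13 peaks, 1 Sox13hi H3K27me3 peak and no H3K4me3 peak.

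At Tbx21 the site with both marks lay on chromosome 11. The H3K4me3 peak ran from 96975801 to 96976849 in Sox13hi (1050 bp wide) and from 96975751 to 96976849 in Sox13lo (1100 bp). The H3K27me3 peak ran from 96975801 to 96976649 in Sox13hi (850 bp) and from 96975751 to 96976349 in Sox13lo (600 bp). All 4 peaks began within 50 bp of each other, and the H3K27me3 peak ended before the H3K4me3 peak in both populations.

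The deposited scores placed these peaks at different heights in their own lists. The H3K4me3 peak ranked 8029 of 20444 in Sox13hi (top 39.3%) and 6163 of 18471 in Sox13lo (top 33.4%). The H3K27me3 peak ranked 626 of 14842 in Sox13hi (top 4.22%) and 1641 of 7395 in Sox13lo (top 22.2%). The site was thus among the higher H3K27me3 scores of the Sox13hi list and in the middle range of the H3K4me3 scores. Because the lists differ in length, these ranks do not show a change between populations.

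Around the Tbx21 site the Sox13hi H3K27me3 list had further peaks that the Sox13lo list did not. They ran from 96974901 to 96975349 (450 bp, rank 4196, top 28.3%) and from 96973901 to 96974149 (250 bp, rank 7788, top 52.5%), which left gaps of 450 bp and 750 bp between the 3 neighbouring peaks. Farther off were a peak of 150 bp from 96944951 to 96945099 (rank 10716, top 72.2%) and one of 100 bp from 96987651 to 96987749 (rank 11742, top 79.1%). In the deciles that hold these 4 peaks, 34.8% of all Sox13hi H3K27me3 peaks were matched for the first, 8.75% for the second and 7.35% for the farther pair, so most peaks of such ranks had no Sox13lo partner. The window therefore held 5 Sox13hi H3K27me3 peaks against 1 in Sox13lo, and 0.938% of 60 kb bins held 5 or more Sox13hi H3K27me3 peaks. With the Sox13hi list shortened by score to the length of the Sox13lo list, the counts were 2 and 1. With peaks within 1 kb of each other merged they were 3 and 1.

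The Sox13hi H3K4me3 list also had more peaks at Tbx21, 3 against 1 in Sox13lo. A Sox13hi peak from 96965551 to 96965849 (300 bp, rank 16012, top 78.3%) and another from 96988101 to 96988749 (650 bp, rank 14252, top 69.7%) had no Sox13lo partner. The nearest Sox13lo H3K4me3 peak was 9900 bp from the first and 11250 bp from the second. Neither touched H3K27me3, although the second lay 350 bp from the narrow H3K27me3 peak at 96987651. In the decile of the Sox13hi list that holds the first, 30.5% of all H3K4me3 peaks were matched in Sox13lo, and in that of the second 60.9% were. The window held 3 Sox13hi H3K4me3 peaks in all, and 4.12% of 60 kb bins held at least 3.

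The Tbx21 window held 1 SOX13 peak, as 24.3% of 60 kb bins held at least 1. It ran from 96966951 to 96967299 (350 bp), ranked 4529 of 13807 (top 32.8%) and touched no histone peak. Bins of 60 kb with both marks in both populations and a SOX13 peak, as here, made up 2.55%. Its nearest neighbour was the 300 bp Sox13hi H3K4me3 peak, 1100 bp away, and it lay 8500 bp from the site with both marks as listed in Sox13hi. The next SOX13 peak was 82650 bp away.

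At Eomes the site with both marks lay on chromosome 9. H3K4me3 ran from 118387601 to 118388799 in Sox13hi (1200 bp, rank 6686 of 20444, top 32.7%) and from 118387501 to 118388949 in Sox13lo (1450 bp, rank 4312 of 18471, top 23.3%). H3K27me3 ran from 118388051 to 118389049 in Sox13hi (1000 bp, rank 366 of 14842, top 2.47%) and from 118388301 to 118388749 in Sox13lo (450 bp, rank 1833 of 7395, top 24.8%). The Sox13lo H3K27me3 peak lay whole inside the Sox13hi peak. The Sox13hi H3K27me3 peak here had the highest rank, as a share of its list, of all 26 members.

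A second H3K4me3 site of the Eomes window carried no H3K27me3. It ran from 118415101 to 118416399 in Sox13hi (1300 bp, rank 2687, top 13.1%) and to 118416449 in Sox13lo (1350 bp, rank 2878, top 15.6%). The nearest H3K27me3 peak was 17400 bp away in Sox13hi and 26350 bp away in Sox13lo. Golga4, which encodes a golgin of the trans-Golgi, follows Eomes in the GRCm38 gene order, and whether this site belongs to it was not analysed here. The window thus showed an H3K4me3 site with the repressive mark and one without it, 26300 bp apart in Sox13hi.

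The remaining peaks of the Eomes window were each listed in 1 population. Sox13lo had an H3K4me3 peak of 550 bp from 118386601 to 118387149 (rank 15689, top 84.9%), 350 bp from the larger Sox13lo peak and 450 bp from the Sox13hi one. Sox13lo also had an H3K27me3 peak of 300 bp from 118378501 to 118378799 (rank 4160, top 56.3%), with the nearest Sox13hi H3K27me3 peak 4700 bp away. Sox13hi had H3K27me3 peaks from 118383501 to 118383749 (250 bp, rank 9101, top 61.3%), from 118396251 to 118396349 (100 bp, rank 13000, top 87.6%) and from 118397401 to 118397699 (300 bp, rank 7313, top 49.3%). In the deciles that hold the Sox13hi H3K27me3 peaks, 7.82%, 4.31% and 12.8% of all peaks were matched in Sox13lo. In the deciles that hold the Sox13lo peaks, 30.7% of H3K4me3 and 39.5% of H3K27me3 peaks were matched in Sox13hi, so a peak without a partner was the usual case at these ranks. Bins of 50 kb with at least 4 Sox13hi H3K27me3 peaks, as here, made up 1.29%, and those with at least 2 Sox13lo H3K27me3 peaks 2.9%. At equal list length the order of the H3K27me3 counts was lost, with 1 Sox13hi peak, or 2 with the peak from 118397401 that was tied at the limit, against 2 in Sox13lo.

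No SOX13 peak touched the Eomes window, and 21% of 50 kb bins held one. The nearest SOX13 peaks were 59.3 kb before and 31 kb after it. The site with both marks was 61950 bp from SOX13 by its Sox13hi H3K27me3 peak.

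The Ifng window had the fewest peaks. Its SOX13 peaks ran from 117870101 to 117870299 (200 bp, rank 10543 of 13807, top 76.4%), from 117905901 to 117906249 (350 bp, rank 3404, top 24.7%) and from 117907401 to 117907649 (250 bp, rank 11928, top 86.4%). The last 2 lay 1150 bp apart. Another SOX13 peak within 2 kb was found for 5.95% of all SOX13 peaks, and at least 3 SOX13 peaks were found in 1.24% of 60 kb bins. The highest of the 3 was in the upper part of the SOX13 list by rank, and the other two were in its lower part.

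Histone marks at Ifng were sparse. The Sox13hi H3K27me3 peak ran from 117872251 to 117872499 (250 bp, rank 8668, top 58.4%), 1950 bp from the first SOX13 peak. The nearest Sox13lo H3K27me3 peak was 313600 bp away. The nearest H3K4me3 peaks outside the window were 270.7 kb before and 305.35 kb after it in Sox13hi, and 179.95 kb and 152.4 kb in Sox13lo. H3K4me3 touched 29% of 60 kb bins in Sox13hi and 26.1% in Sox13lo, and H3K27me3 touched 20.3% and 9.2%. Among coding genes in the GRCm38 order, Ifng follows the cytokine genes Il22 and Iltifb and precedes the kinase gene Dyrk2. A list without a peak shows that none was called there at an unknown depth, not that the mark was absent.

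**Figure D3:**
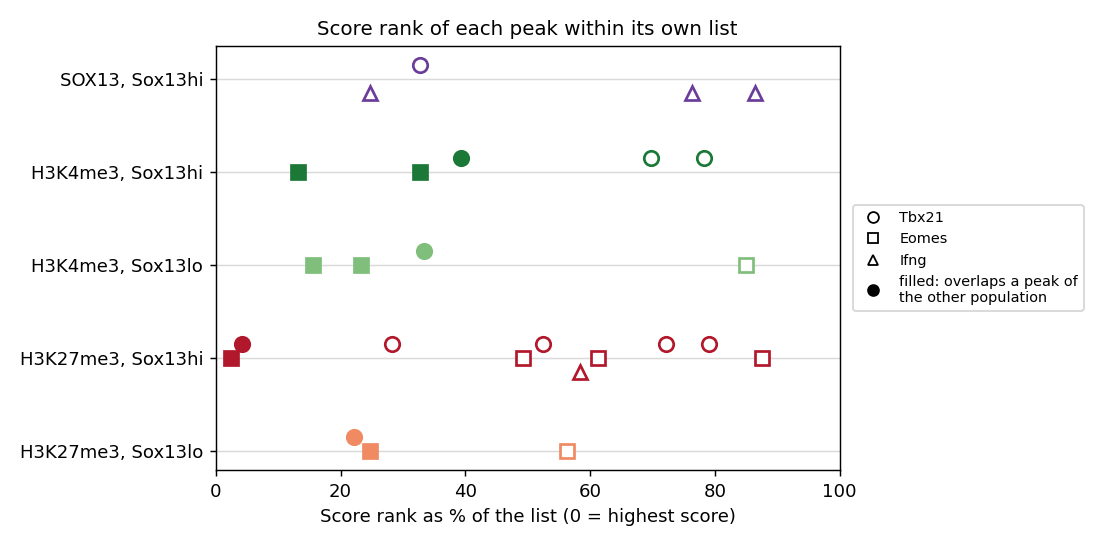
Score rank of each of the 26 peaks as a percentage of its own list (x axis, 0 for the highest score) for the 5 lists (rows), with circles for Tbx21, squares for Eomes and triangles for Ifng. Filled symbols overlap a peak of the other population and rank within the top 39.3%, and open histone symbols range from 28.3 to 87.6%. SOX13 was mapped in 1 population, so its symbols are open.

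Between the populations 10 of the 22 histone peaks were matched. For H3K4me3 these were 3 of 5 Sox13hi peaks, where 69.7% of the whole list was matched, and 3 of 4 Sox13lo peaks, where 78.1% was. For H3K27me3 they were 2 of 10 Sox13hi peaks, against 24.5%, and 2 of 3 Sox13lo peaks, against 49.1%. The members were thus matched about as often as their lists, and nothing particular to the 3 loci is read from these counts. Matched peaks were 450 to 1450 bp wide with ranks in the top 2.47 to 39.3%. Unmatched peaks were 100 to 650 bp wide with ranks from the top 28.3 to 87.6%. These ranges pool marks of unlike width. The median width was 800 bp in both H3K4me3 lists, and 300 bp (Sox13hi) and 350 bp (Sox13lo) in the H3K27me3 lists.

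The windows held 10 Sox13hi against 3 Sox13lo H3K27me3 peaks, of which 4 and 2 ranked in the top 50% of their lists. The Sox13hi list was the longer, with 14842 peaks against 7395. At equal list length both populations had 3. A peak at Eomes, from 118397401, was 1 of 91 peaks with the score at the limit and was left out by position order. Counting it gives 4 in Sox13hi.

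Both marks touched at the Tbx21 and Eomes sites alone. They account for 2 of 10 Sox13hi H3K27me3 peaks, where 22.1% of the whole list touched H3K4me3, and for 2 of 3 Sox13lo peaks, where 38.6% did. From the side of H3K4me3 they account for 2 of 5 Sox13hi peaks, against 14.4%, and 2 of 4 Sox13lo peaks, against 14.2%. In the highest H3K27me3 decile of Sox13hi, which holds both sites, 85.1% of peaks touched H3K4me3 and 88.2% were matched in Sox13lo. In the eighth decile of Sox13lo, which holds both sites there, the shares were 60.8% and 69.7%.

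The sites were then set beside all peaks that pair 1 to 1 between the populations, which gives both populations the same number of ranks. Among 2997 H3K27me3 pairs, the Tbx21 site ranked 417 in Sox13hi and 1125 in Sox13lo, and the Eomes site 229 and 1249. Among 13469 H3K4me3 pairs, Tbx21 ranked 7618 in Sox13hi and 5883 in Sox13lo, and Eomes 6337 and 4119. At both sites H3K27me3 thus stood higher among pairs in Sox13hi, and H3K4me3 higher in Sox13lo. Rank gaps at least as wide were seen in 34.0% of H3K27me3 pairs for Tbx21 and 19.9% for Eomes, and in 16.5% and 9.17% of H3K4me3 pairs. The H3K4me3 site without H3K27me3 ranked 2533 in Sox13hi and 2735 in Sox13lo, and 82.2% of pairs had a gap as wide or wider. This site stood higher among H3K4me3 pairs in both populations than the sites with both marks. Shares among pairs of like rank were not computed, so these shares are not a like comparison between the sites. The gap between replicate libraries of 1 population was not measured.

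Widths were compared over the same pairs. The Sox13hi H3K27me3 peak was 1.42 times as wide as the Sox13lo one at Tbx21 and 2.22 times at Eomes, and 29.2% and 11.7% of pairs had a ratio at least as high. The median ratio was 1, and 90% of pairs lay between 0.333 and 3. For H3K4me3 the ratio was 0.955 at Tbx21, 0.828 at the Eomes site with both marks and 0.963 at the site without H3K27me3. A ratio as low as at Tbx21 or lower was seen in 32.4% of H3K4me3 pairs, and as low as at the Eomes site with both marks in 11.1%. All 5 ratios thus lay inside the range of most pairs.

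**Figure D4:**
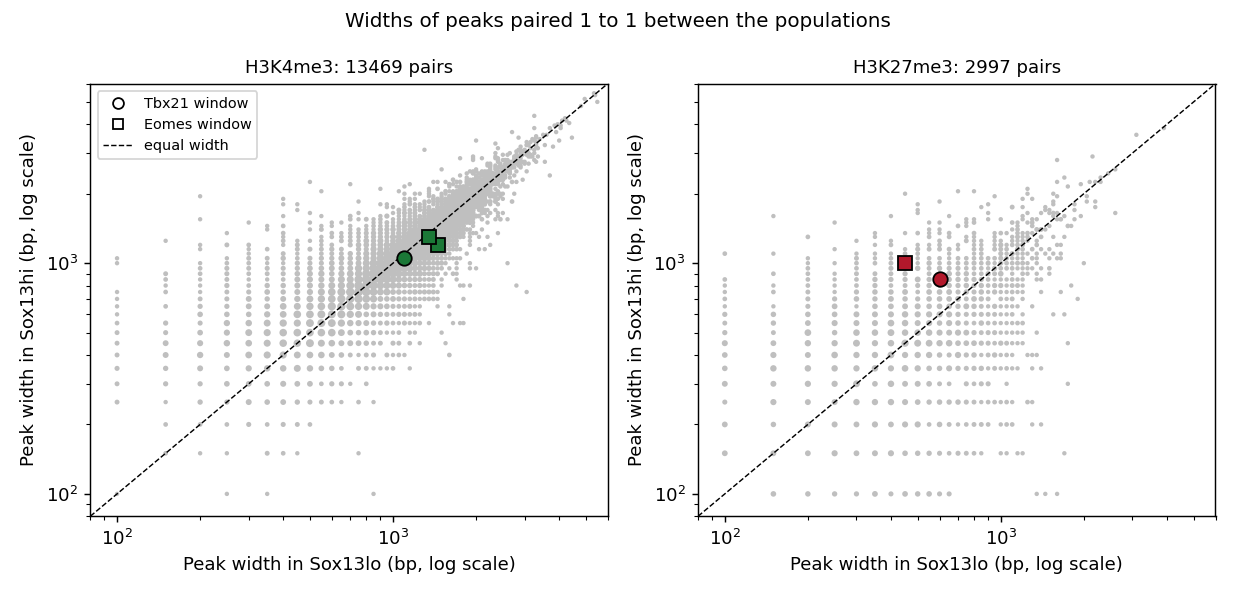
Width of each peak in Sox13lo (x axis, bp, log scale) against its 1 to 1 partner in Sox13hi (y axis, bp, log scale) for H3K4me3 (13469 pairs, left) and H3K27me3 (2997 pairs, right). Grey points are all pairs, larger where more pairs share a width, and coloured symbols are the Tbx21 (circle) and Eomes (square) windows, which lie below the line of equal width for H3K4me3 and above it for H3K27me3.

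SOX13 and the marks did not meet in any of the windows. None of the 4 SOX13 peaks touched a peak of the 4 histone lists, which 17.8% of all SOX13 peaks did. That share includes the Sox13lo histone lists, although SOX13 was mapped in Sox13hi only. Either Sox13hi mark was touched by 15.4% of all SOX13 peaks. None of the 22 histone peaks touched SOX13, and the nearest was 1100 bp away. In the whole lists SOX13 was on 9.29% of Sox13hi and 9.33% of Sox13lo H3K4me3 peaks, and on 3.27% and 5.65% of H3K27me3 peaks. With such shares, a count of 0 among so few peaks is no result about the 3 loci.

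The letters ACAAT, the core of SOX sites, or ATTGT on the other strand, were in none of the 3 promoter sequences shown above, and 27.7% of all promoter windows of that length held them. CTTTG or CAAAG, the core of TCF and LEF sites, was found 1 time at Tbx21, 2 times at Eomes and 1 time at Ifng, and 48.6% of windows held it. A match of this length is a description and not a binding site.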

How the data were processed

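ChIP-seq libraries of SOX13 (Sox13hi) and of H3K4me3 and H3K27me3 (Sox13hi and Sox13lo) were used, 1 per group, each with 1 deposited peak list. An input library is named in the labels and was not used here. Peaks are on mm9, according to the submitters' processing notes. No label or file header used here names the aligner, peak caller, thresholds, control or read numbers, so the depth is unknown and fewer reads or a stricter threshold would shorten a list. Each peak has a deposited score, the authors' own value, close to a multiple of 0.25 (within 0.0025 for every peak), whose definition is not given. It served only for ranks within a list, with 1 the highest score and ties sharing the better rank. Tied peaks were ordered by position where a list was shortened. The deposited files give other columns for position. All starts lay on a 50 bp grid and all ends 1 bp short of it. Printed starts count from 1, printed ends are those deposited, and widths and gaps run to the grid.

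Peaks were matched or said to touch at an overlap of at least 1 bp. The background was the share of all peaks of a list that met the same rule, or the share of bins of 60 kb or 50 kb, laid from the first base of each chromosome to the last peak. Deciles divide a list into 10 parts by score, the tenth being the highest. Pairs are peaks that overlap exactly 1 peak in the other population and are its only partner. The members and lists were chosen with earlier results of these data known. All 26 members are named. Other type 1 genes and marker genes had been listed for use with gene positions in mm9 and were not analysed here. Neighbouring genes and promoter sequences came from RefSeq tables on GRCm38.p6, and coordinates were not converted. The alternatives were counting a list's top 50% by score, an overlap of 50% of the narrower peak, equal list length within a mark, merging within 1 kb and windows widened by 20 kb.

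Python 3.11.15, NumPy 2.4.6, pandas 2.3.3, SciPy 1.17.1 and matplotlib 3.10.9 were used. The overlap code was tested on simulated data with 3 planted shares, where it gave back each share, and its counts equalled those of bedtools 2.31.1 for 20 ordered pairs of lists.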

Additional observations from a re-analysis of the deposited data

How the results depend on the processing

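Counts over the 3 windows together stayed within 1.5 times of their value when an overlap had to cover 50% of the narrower peak and with peaks within 1 kb merged, although merging took the Sox13hi H3K27me3 peaks of the Tbx21 window from 5 to 3. At equal list length within a mark, the Sox13hi H3K27me3 peaks in the windows fell from 10 to 3, and the other 11 counts stayed within 1.5 times. Counting peaks in the top 50% by score alone, the windows held 4 Sox13hi H3K27me3 peaks, 3 Sox13hi H3K4me3 peaks in place of 5 and 2 SOX13 peaks in place of 4. With windows widened by 20 kb on both sides, matched H3K4me3 peaks rose from 3 to 5 in each population, Sox13lo H3K27me3 peaks from 3 to 5, and Sox13hi H3K27me3 peaks that touch H3K4me3 from 2 to 4. SOX13 peaks that touch a histone peak stayed at 0 under each alternative, and the sites with both marks at Tbx21 and Eomes were present under each. No paired analysis was possible because no group has a second library, which also leaves no replicate that could be dropped. The depth behind the lists is unknown, so a missing peak cannot be told apart from a peak below the threshold.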

Other observations

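The nearest peaks beyond the Tbx21 window formed a further group, 10.75 to 13.8 kb after its end, toward larger coordinates on chromosome 11. H3K4me3 peaks ran from 97011551 to 97012649 in Sox13hi (1100 bp, top 36.0% of the list) and from 97011201 to 97012649 in Sox13lo (1450 bp, top 28.5%). The Sox13hi list had 4 H3K27me3 peaks in this group, the highest from 97011901 to 97012499 (600 bp, rank 978, top 6.59%), inside the H3K4me3 peak. The Sox13lo list had 2 H3K27me3 peaks there, from 97012851 to 97013299 and from 97013401 to 97013899, both past the end of the larger H3K4me3 peak. The first of them touched a smaller Sox13lo H3K4me3 peak, from 97012801 to 97013199. That smaller peak overlapped a Sox13hi H3K4me3 peak from 97012751 to 97013299 (550 bp, top 71.6%), which touched no Sox13hi H3K27me3 peak. Both marks were thus listed in both populations in this group too, and the H3K27me3 peaks that touched H3K4me3 in Sox13hi had no Sox13lo partner. Another Sox13hi H3K27me3 peak of the group, from 97013801 to 97014599 (800 bp, top 12.5%), touched no H3K4me3 and overlapped the Sox13lo peak from 97013401. Tbkbp1 and Kpnb1 follow Tbx21 in the GRCm38 gene order, and which gene these peaks belong to was not analysed here. They were singled out after their values were seen.

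Within 20 kb of the Eomes window no further peak was listed. Within 20 kb of the Ifng window there was 1 SOX13 peak, from 117838351 to 117838599 (250 bp, rank 9258, top 67.1%), 11.4 kb before it, which makes 4 SOX13 peaks and no H3K4me3 peak in the widened Ifng window.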
